A study of Arabidopsis thaliana with 12 samples.

Results

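The ATP-binding cassette (ABC) transporters of Arabidopsis thaliana are described here across wild-type and transgenic seedlings grown with and without salt. Members were all genes whose symbol, in the array's probe table or in the RefSeq gene table for the same locus, is ABC followed by a letter from A to I and digits. The RefSeq table holds 124 such genes. Of these, 78 had a named probe on the array, out of 24697 named genes with a probe, and the other 46 are not analysed here. Among those 78, 73 gave enough signal to be tested.

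ABC proteins bind and hydrolyse ATP, and most of them use it to move a substrate across a membrane. In plants the family carries hormones (abscisic acid, auxin, cytokinin), the lipids of the cuticle, defence compounds, and metal and glutathione conjugates bound for the vacuole. The subfamilies are named by letter: E and F proteins have no membrane domain and act in the cytosol, where their relatives in yeast and animals work on ribosomes and translation. Abscisic acid, the hormone of drought and salt stress, is moved by several members of subfamily G.

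RNA came from whole seedlings of Arabidopsis, measured on 12 one-colour Agilent arrays, with 3 arrays in each of 4 groups. The genotypes were wild type (Col-0) and an SvGRP transformant, named for its transgene, which encodes a glycine-rich RNA-binding protein and comes from Sporobolus virginicus, a salt-tolerant grass. Seedlings germinated for 5 days, were moved to plates with 0 or 150 mM NaCl, and were harvested after 24 h at an age of 6 days. The labels do not give the promoter of the transgene, the number of transgenic lines or whether the replicates were grown separately, so the spread behind each p-value is that between these samples and may be technical.

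A level is the log2 signal of a probe minus the log2 of the array's 75th percentile, and a change is a difference of such levels. Levels of different genes come from different probes and are not set against each other. Changes are given with their standard error from a limma fit across 26782 genes or unnamed probes, and a gene is called when its Benjamini-Hochberg adjusted p is under 0.05. The 12 arrays sat on 3 slides. Wild type at 0 mM shared slide 1 with wild type 150 mM replicate 1. Slide 2 carried wild type 150 mM replicates 2 and 3 beside SvGRP 0 mM replicates 1 and 2, and slide 3 carried SvGRP 0 mM replicate 3 and all of SvGRP at 150 mM. At neither NaCl level were the genotypes together on a slide. Median signal per array ran from 676 to 1013 and arrays of a group correlated with r from 0.990 to 0.997. Marker genes were read beside the tissue label: all 5 photosynthetic shoot and all 4 root hair markers were above the floor, set at the 20th percentile of an array, on all 12 arrays. So were 24531 genes or unnamed probes, so this is no test of the tissue. The 6 endodermis markers had no probe and are not analysed here.

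By subfamily, 8 of 12 A genes, 24 of 27 B genes, 10 of 15 C genes, 3 of 3 E genes, 5 of 5 F genes, 17 of 42 G genes and 11 of 18 I genes had a probe, and neither of the 2 D genes did. The 5 genes with a probe that was too dim to test were ABCB5, ABCB18, ABCB24, ABCE3 and ABCG41. Of the 73 tested, 68 were above the floor on all 12 arrays, and the exceptions were ABCA6, ABCA9, ABCB12, ABCC15 and ABCG26. ABCG22, an abscisic acid importer of guard cells, and ABCC3 and ABCC5 of the vacuole are among the genes not analysed here. ABCG36, ABCI6 and ABCB10 carry these names only as synonyms in the reference table and fall outside the rule.

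**Figure D1:**
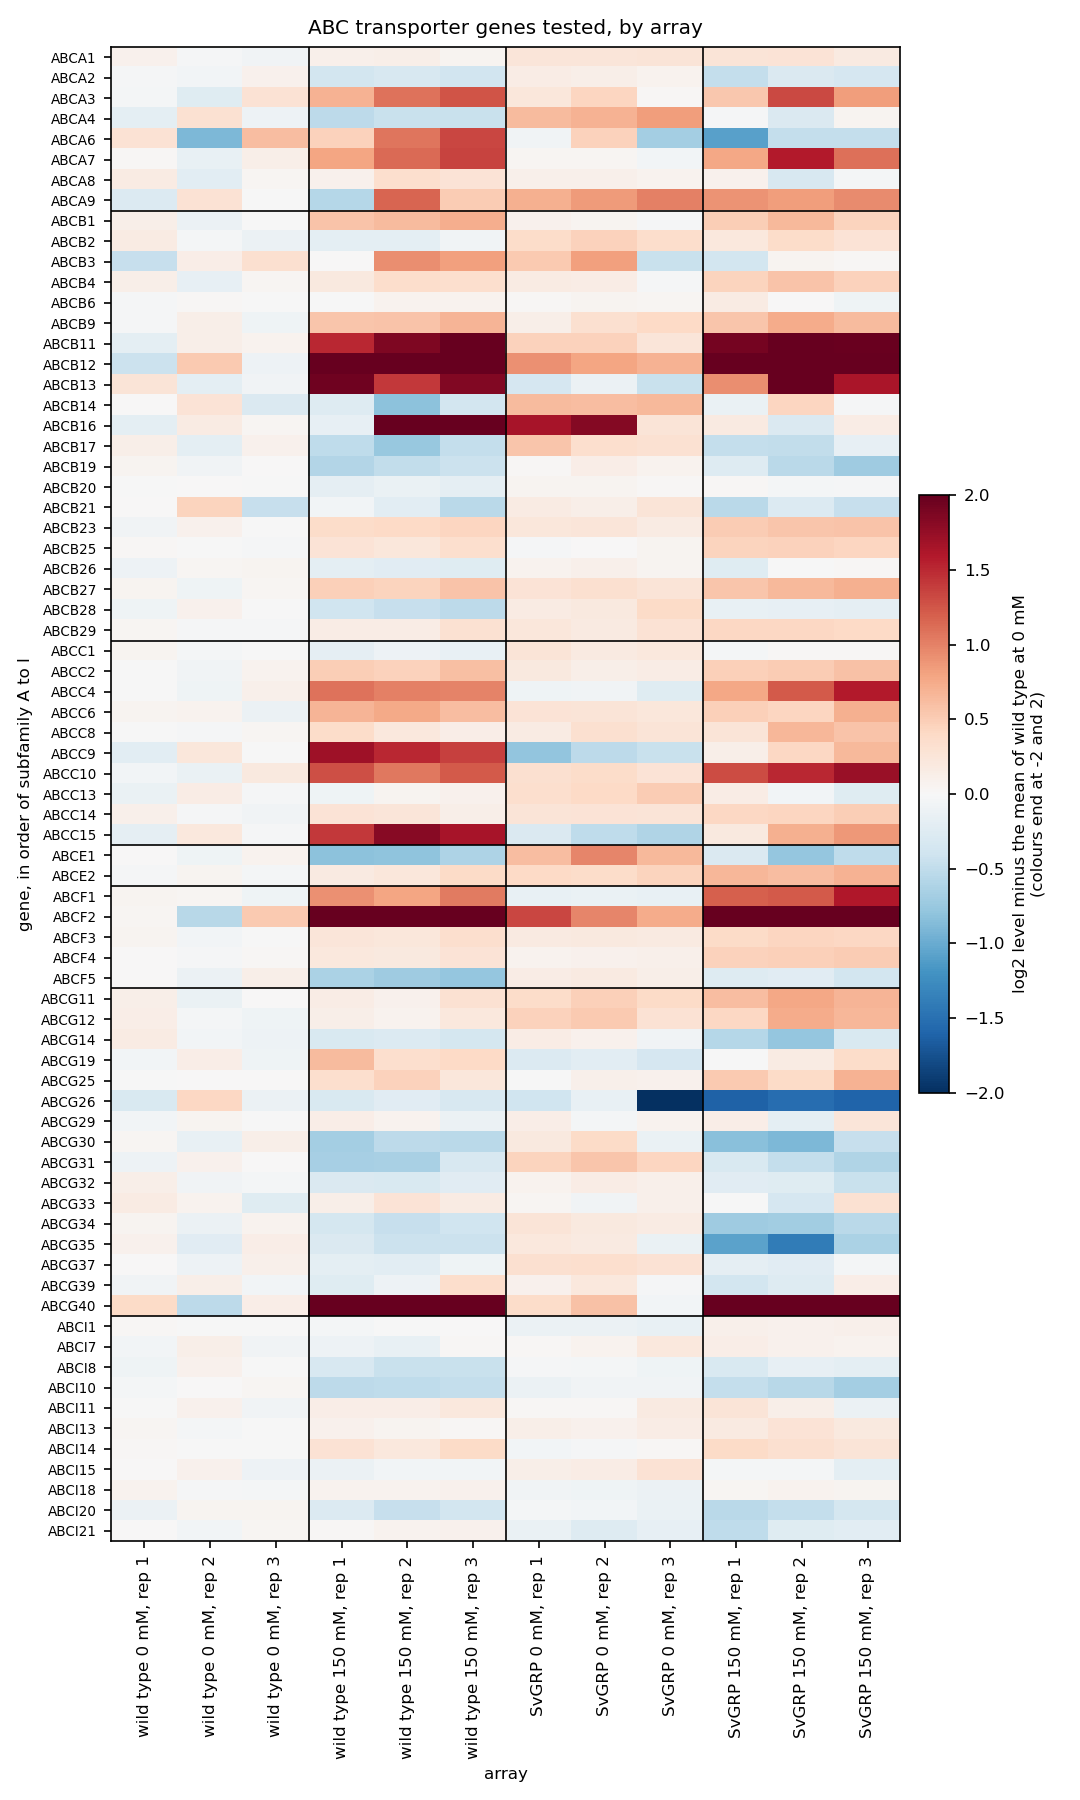
Each row is 1 of the 73 tested ABC genes, ordered by subfamily, and each column is 1 of the 12 arrays in 4 groups of 3. Colour is the log2 level minus the gene's mean in wild type at 0 mM, ending at -2 and 2. ABCG40, ABCF2, ABCB11 and ABCB12 are red on all arrays at 150 mM, and ABCB16 is red on the 4 arrays of slide 2 alone.

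Salt changed most of the family in both genotypes. In wild type 28 of 73 genes rose and 19 fell, and in SvGRP 32 rose and 22 fell. Across all genes tested, 33.1% were called higher and 30.2% lower in wild type, and 31% higher and 37.8% lower in SvGRP, so the members' share of 64.4% called in wild type lay near the 63.2% of all genes, and 74.0% in SvGRP lay near 68.8%. The family's median change was 0.16 in wild type and 0.01 in SvGRP, beside 0.04 and -0.07 over all genes. Rises were the larger changes: 11 members rose at least 2-fold and 0 fell that far in wild type, and 9 rose and 2 fell that far in SvGRP, where ABCC15 had a fitted rise past 2-fold but was below the floor at 0 mM and is shown to have risen at least 1.57-fold. By fitted change, over all genes, 8.67% rose and 6.2% fell at least 2-fold in wild type, and 9.14% rose and 10.9% fell in SvGRP.

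The balance of rises and falls depends on the scale. When arrays were scaled to 8 E1A spike-in probes, added to each labelling as a control, the median of all genes shifted to 0.46 in wild type and 0.16 in SvGRP, and the family split 49 higher and 1 lower in wild type and 34 higher and 9 lower in SvGRP. Of all genes on that scale, 60.8% were higher and 9.91% lower in wild type, and 38.7% and 21.1% in SvGRP. On that scale ABCA2, ABCB20, ABCB26, ABCC1, ABCG14, ABCG32, ABCG34, ABCI8 and ABCI20, which are called lower with salt in wild type, had changes above 0, as did ABCC1 and ABCI8 in SvGRP. All falls below are therefore falls against the 75th percentile. With slide as a term in the fit, 34 of the 47 calls in wild type and 43 of the 54 in SvGRP were kept, and all 47 and 54 changes had the same sign. By the slide layout, the wild-type change in that fit is replicate 1 at 150 mM against the 3 arrays at 0 mM. The SvGRP change is the 3 arrays at 150 mM against replicate 3 at 0 mM. Each salt value with slide as a term thus rests on 1 array on 1 side, and its sign reuses arrays of the main fit. Over all genes, 45.7% and 54.1% were called in that fit.

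Of the 73 members, 45 were called in both genotypes, 28 higher and 17 lower, and 0 were called in opposite directions by limma. Over all genes, 25.6% were called higher in both, 26.5% lower in both and 1.05% in opposite directions. ABCB20 and ABCB26 were called in wild type alone, and ABCB21, ABCC8, ABCC13, ABCG11, ABCG35, ABCG37, ABCI1, ABCI15 and ABCI18 in SvGRP alone; calls in a single genotype do not show a difference between genotypes, which the interaction below tests. Across the 73 genes the 2 salt changes, which share no array, had a Pearson correlation of 0.876 and a Spearman correlation of 0.824, given as a description since genes are not independent replicates. For 64 genes the change in SvGRP lay within 0.5 of that in wild type.

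**Figure D2:**
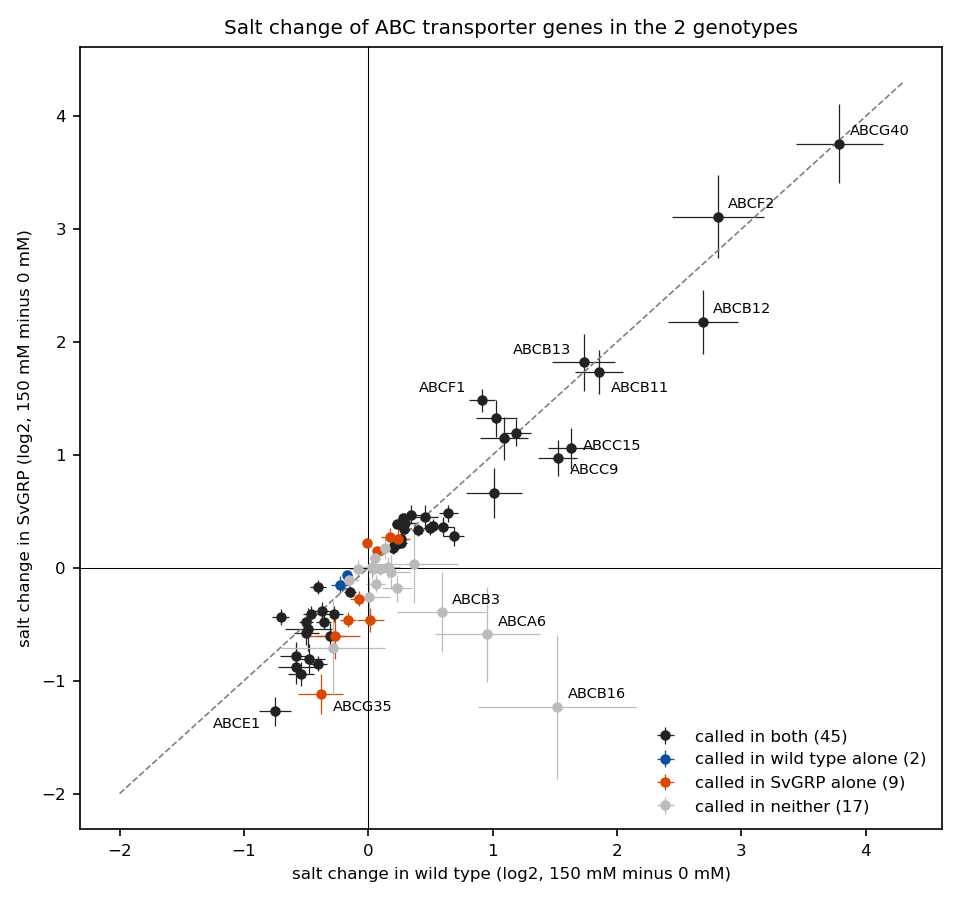
Salt change (log2, 150 mM minus 0 mM, with standard errors) in wild type on the x axis and in SvGRP on the y axis, for the 73 tested ABC genes. The dashed line marks equal change. The 45 genes called in both genotypes lie along it, from ABCE1 at -0.75 and -1.27 to ABCG40 at 3.79 and 3.76, and ABCB16, called in neither, lies farthest from it. Points of genes below the floor in a group, such as ABCB12, are fitted values.

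Among the 7 listed abscisic acid transporters, 4 had a probe and were tested, and 2 rose and 2 fell in both genotypes. The shares of all genes called in either direction were 63.2% in wild type and 68.8% in SvGRP. ABCG40 imports abscisic acid into cells across the plasma membrane, guard cells included. Its level in wild type was -4.83, -5.73 and -5.08 at 0 mM and -1.38, -1.46 and -1.44 at 150 mM. In SvGRP it was -4.85, -4.62 and -5.27 at 0 mM and -1.94, -1.07 and -0.46 at 150 mM. The salt groups lay far above the control groups with no overlap, and this was the family's largest change in each genotype: 3.79 ± 0.35 (13.8-fold, adjusted p = 1.4e-05) in wild type and 3.76 ± 0.35 (13.5-fold, adjusted p = 8.9e-06) in SvGRP, n = 3 arrays per group, limma.

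ABCG25 exports abscisic acid from the cells of the vasculature where it is made. It stood at -1.65 on all 3 wild-type arrays at 0 mM and at -1.31, -1.19 and -1.42 at 150 mM. In SvGRP it stood at -1.66, -1.54 and -1.56, then at -1.12, -1.27 and -0.96. Every array at 150 mM was higher than every array at 0 mM, but the rise was small, 0.34 ± 0.08 (limma adjusted p = 0.0046) in wild type and 0.47 ± 0.08 (adjusted p = 0.00055) in SvGRP. With slide as a term the wild-type rise was 0.34 with an adjusted p of 0.063.

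ABCG30 and ABCG31 take part in moving abscisic acid in seeds, ABCG31 out of the endosperm and ABCG30 into the embryo. ABCG30 fell in wild type from -1.81, -2.00 and -1.74 to -2.53, -2.38 and -2.38, and in SvGRP from -1.65, -1.47 and -1.99 to -2.69, -2.75 and -2.31. ABCG31 fell in wild type from -2.35, -2.17 and -2.25 to -2.93, -2.90 and -2.57, and in SvGRP from -1.81, -1.70 and -1.82 to -2.57, -2.74 and -2.85. For both genes the salt arrays lay below the control arrays without overlap. ABCG30 changed by -0.58 ± 0.15 in wild type (limma adjusted p = 0.0064) and -0.88 ± 0.15 in SvGRP (adjusted p = 0.00044). Those of ABCG31 were -0.54 ± 0.11 (adjusted p = 0.0014) and -0.94 ± 0.11 (adjusted p = 3.0e-05). On the E1A scale the wild-type falls were -0.15 and -0.11 and not called. Outside the family, DTX50 (AT5G52050), an abscisic acid exporter of another class, rose by 2.11 ± 0.37 and 1.93 ± 0.37, and NRT1:2, an abscisic acid importer also known as NPF4.6, had -0.22 ± 0.07 and -0.23 ± 0.07. Both values of NRT1:2 were called, but they lost their calls with slide as a term (-0.26 and -0.20) and were above 0 on the E1A scale, and the mean of its probes gave 0.02 and -0.06. ABCG40 is also counted among the defence transporters below.

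Of the 8 tested ABC genes linked to auxin, 2 rose and 3 fell in wild type, and 2 rose and 4 fell in SvGRP. Over all genes, 63.2% were called in either direction in wild type and 68.8% in SvGRP. ABCB1 and ABCB19 are plasma membrane auxin exporters that act together in the long-distance flow of the hormone. ABCB1 went from 1.07, 0.84 and 0.94 to 1.52, 1.58 and 1.67 in wild type, and from 1.04, 1.00 and 0.92 to 1.43, 1.59 and 1.39 in SvGRP. ABCB19 went the other way, from 2.37, 2.24 and 2.32 to 1.73, 1.82 and 1.88 in wild type, and from 2.33, 2.44 and 2.39 to 2.05, 1.77 and 1.60 in SvGRP. The salt and control arrays did not overlap for either gene in either genotype, and the directions were opposite. ABCB1 changed by 0.64 ± 0.08 (limma adjusted p = 6.5e-05) and 0.48 ± 0.08 (adjusted p = 0.0003), and ABCB19 by -0.50 ± 0.10 (adjusted p = 0.0017) and -0.58 ± 0.10 (adjusted p = 0.00054). On the E1A scale the fall of ABCB19 in wild type was -0.07 and not called. TWD1, the immunophilin that both exporters need to reach the plasma membrane, was not called, with 0.03 ± 0.06 and -0.09 ± 0.06.

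ABCB4, an auxin carrier of root epidermis and root hairs, gave no settled direction. Its brighter probe rose by 0.30 ± 0.08 in wild type and 0.40 ± 0.08 in SvGRP, from 1.60, 1.32 and 1.52 to 1.68, 1.82 and 1.82 and from 1.65, 1.63 and 1.46 to 1.93, 2.06 and 1.94, without overlap. With slide as a term the wild-type value was 0.20 with an adjusted p of 0.18. Its other probe fell by 0.67 and 0.97 on the log2 scale, also called, and the mean of the 2 probes gave -0.19 and -0.29. It was the only family gene with probes called in opposite directions for salt, among 17 genes with at least 2 passing probes. ABCB21, a close relative of ABCB4, was called in SvGRP alone at -0.61 ± 0.20, beside -0.27 ± 0.20 in wild type, and the call ended with slide as a term (-0.69, adjusted p = 0.080) and without SvGRP 0 mM replicate 3 or at 150 mM replicate 1 or 3 (-0.59 to -0.55). ABCG37, which exports the auxin precursor indole-3-butyric acid and coumarins from roots, stood at 1.83, 1.71 and 1.92 and then 1.63, 1.61 and 1.73 in wild type, which overlap in range. In SvGRP it went from 2.13, 2.16 and 2.104 to 1.64, 1.60 and 1.78, a fall without overlap of -0.46 ± 0.07 (limma adjusted p = 0.00017), beside -0.16 ± 0.07 (adjusted p = 0.054) in wild type.

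Of 12 tested auxin transport genes that are not ABC proteins, 8 were called lower and 1 higher in each genotype, where 30.2% of all genes were lower in wild type and 37.8% in SvGRP. On the E1A scale 5 were lower and 3 higher in wild type, and 6 lower and 1 higher in SvGRP: in wild type LAX1 was 0.06, PIN3 -0.19 and PIN5 -0.03, none called. LAX2, an auxin importer, had -1.55 ± 0.13 and -1.14 ± 0.13, AUX1, the main importer of the root tip, -0.83 ± 0.13 and -0.92 ± 0.13, and PIN6, an exporter of the PIN family, -0.97 ± 0.12 and -0.93 ± 0.12. PID, a kinase that directs PIN proteins to 1 side of the cell, rose by 0.93 ± 0.10 and 0.96 ± 0.10. ABCB1 was thus higher with salt while 8 of these 12 genes were lower on the 75th percentile scale.

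**Figure D3:**
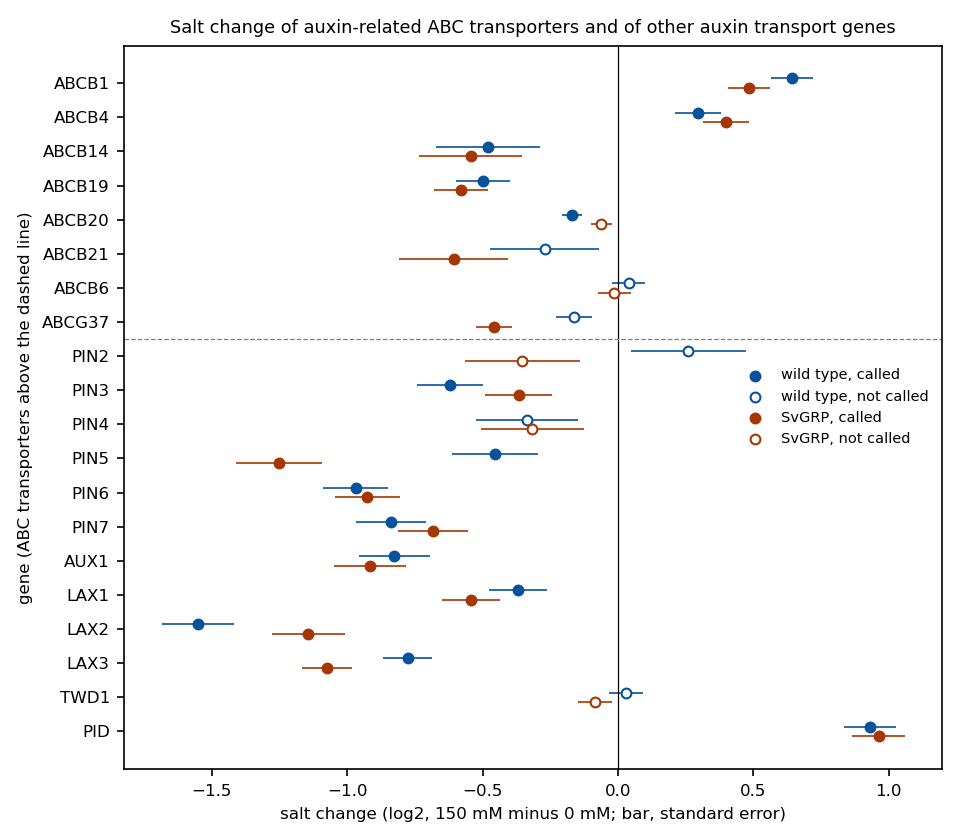
Salt change (log2, 150 mM minus 0 mM; bars are standard errors) in wild type and SvGRP for 8 auxin-related ABC genes above the dashed line and 12 other auxin transport genes below it. Filled points are called. ABCB1, the brighter probe of ABCB4 and PID are called above 0 in both genotypes, and LAX2 lies lowest in wild type at -1.55, and LAX1 in wild type is at 0.06 when scaled to E1A instead.

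ABCB13 and ABCB14 lie on the same chromosome with 7 coding genes between them and moved in opposite directions. ABCB14 imports malate into guard cells and has been linked to auxin transport in stems. ABCB13 went from -3.62, -4.06 and -3.93 to -1.92, -2.46 and -2.03 in wild type and from -4.21, -3.99 and -4.32 to -2.95, -1.87 and -2.24 in SvGRP, with no overlap. It rose by 1.73 ± 0.25 (limma adjusted p = 0.00023) and 1.82 ± 0.25 (adjusted p = 0.00013). ABCB14 went from -2.73, -2.46 and -3.03 to -2.99, -3.56 and -3.11 in wild type, where the groups overlapped, and from -2.10, -2.13 and -2.09 to -2.87, -2.32 and -2.77 in SvGRP, where they did not. Its falls of -0.48 ± 0.19 (adjusted p = 0.049) and -0.54 ± 0.19 (adjusted p = 0.028) were -0.25 (adjusted p = 0.48) and -0.56 (adjusted p = 0.12) with slide as a term. The wild-type call ended without any of 8 arrays, which were all but wild type 0 mM replicate 3 and at 150 mM replicate 1 and SvGRP 150 mM replicates 1 and 2, and was -0.31 without wild type 150 mM replicate 2. The SvGRP call ended without any SvGRP array but replicate 2 at 150 mM, and was -0.43 without replicate 1 at 150 mM. The 3 guard cell markers fell with salt too, by a median of -1.07 in wild type and -1.51 in SvGRP. Their summed level was 1.49 to 1.75 in wild type at 0 mM and 0.685 to 0.807 at 150 mM, and 2.00 to 2.29 and 0.718 to 1.00 in SvGRP, in multiples of the 75th percentile, and none was below the floor. Their part in the ABCB14 result was not tested. In RNA of whole seedlings, fewer cells of a type and less RNA per cell cannot be told apart.

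ABCB11 and ABCB12 are direct neighbours on the chromosome and rose together. ABCB11 went from -4.30, -3.98 and -4.04 to -2.60, -2.25 and -1.91 in wild type and from -3.65, -3.64 and -3.86 to -2.20, -1.61 and -2.13 in SvGRP. Its rise without overlap was 1.85 ± 0.20 (limma adjusted p = 3.1e-05) and 1.74 ± 0.20 (adjusted p = 3.0e-05). ABCB12 was below the floor on all arrays at 0 mM, with levels of -9.15, -8.19 and -8.82 in wild type and -7.80, -7.94 and -8.03 in SvGRP. At 150 mM it was above the floor on every array, at -6.50, -5.98 and -5.61 and at -5.84, -5.36 and -6.03. It was at least 3.96-fold higher in wild type and at least 3.95-fold higher in SvGRP, set against the floor or the probe's own signal, whichever was higher on each array. The limma adjusted p of 3.0e-05 and 7.7e-05 belong to the fitted changes of 2.69 and 2.18, not to these bounds. ABCB12 passed the filter on dim probes only through the groups at 150 mM, so its calls are no separate support for the rise. Whether the probes of these similar neighbours detect each other's transcripts was not tested.

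A run of neighbouring subfamily A genes showed no common direction. ABCA2, ABCA3 and ABCA4 are direct neighbours: ABCA2 had -0.36 ± 0.06 and -0.48 ± 0.06, ABCA3 1.01 ± 0.22 and 0.66 ± 0.22, and ABCA4 -0.47 ± 0.13 and -0.81 ± 0.13, all called in wild type and in SvGRP. ABCA2 was above 0 in wild type on the E1A scale. ABCA4 went from -4.71, -4.21 and -4.60 to -5.03, -4.96 and -4.96 in wild type and from -3.87, -3.82 and -3.68 to -4.54, -4.80 and -4.46 in SvGRP, without overlap. ABCA7, further along the cluster, rose by 1.09 ± 0.19 and 1.15 ± 0.19, and its neighbour ABCA8 was not called, at 0.23 ± 0.12 and -0.18 ± 0.12. The calls of ABCA3 and ABCA4 in wild type ended with slide as a term, at 0.69 (adjusted p = 0.089) and -0.52 (adjusted p = 0.061). The call of ABCA3 in SvGRP ended without SvGRP 150 mM replicate 2, at 0.45, and without SvGRP 0 mM replicate 1 or 3.

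Subfamily C, the multidrug resistance-associated proteins that load the vacuole with conjugates, had 7 of 10 tested genes higher and 1 lower with salt in wild type, and 8 higher and 2 lower in SvGRP. The shares of all genes were 33.1% higher and 30.2% lower in wild type, and 31% and 37.8% in SvGRP. ABCC1 and ABCC2 carry phytochelatin-bound metals and other conjugates into the vacuole. ABCC2 went from 0.89, 0.82 and 0.97 to 1.39, 1.36 and 1.49 in wild type and from 1.08, 1.00 and 1.03 to 1.37, 1.39 and 1.48 in SvGRP, a rise without overlap of 0.52 ± 0.06 (limma adjusted p = 3.9e-05) and 0.37 ± 0.06 (adjusted p = 0.00024). ABCC1 did not rise with it. Its level moved from 1.32, 1.22 and 1.25 to 1.09, 1.17 and 1.11 in wild type and from 1.53, 1.44 and 1.48 to 1.23, 1.29 and 1.29 in SvGRP. These falls of -0.14 ± 0.05 (adjusted p = 0.023) and -0.21 ± 0.05 (adjusted p = 0.0027) did not overlap, but they were 0.28 and 0.02 on the E1A scale, and the wild-type call ended with slide as a term (-0.18, adjusted p = 0.089), under quantile normalization and without wild type 0 mM replicate 1 or at 150 mM replicate 1 or 3.

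The largest rises of the subfamily lay elsewhere. ABCC4, a vacuole or plasma membrane transporter linked to folates and stomata, rose by 1.03 ± 0.16 and 1.33 ± 0.16, and ABCC10 by 1.19 ± 0.12 and 1.20 ± 0.12. ABCC6, known for its induction by cadmium, rose by 0.69 ± 0.08 and 0.28 ± 0.08, and with slide as a term the SvGRP value was 0.31 with an adjusted p of 0.078. ABCC9 went from -6.24, -5.81 and -6.04 to -4.33, -4.53 and -4.67 in wild type and from -6.82, -6.55 and -6.47 to -5.91, -5.62 and -5.39 in SvGRP. That was a rise without overlap of 1.52 ± 0.16 (limma adjusted p = 3.0e-05) and 0.98 ± 0.16 (adjusted p = 0.00037). ABCC15 went from -7.85, -7.46 and -7.69 to -6.25, -5.84 and -6.02 in wild type, a rise of 1.63 ± 0.18. In SvGRP it was below the floor on all arrays at 0 mM (-7.95, -8.17 and -8.27) and above it at 150 mM (-7.46, -6.96 and -6.79), at least 1.57-fold higher. Of the 4 tested genes that make the glutathione and phytochelatins carried with ABCC1 and ABCC2 substrates, GSH2 was lower in wild type (-0.29 ± 0.06), and GSH2 and PCS2 were lower in SvGRP (-0.39 ± 0.06 and -0.30 ± 0.12). GSH1 and PCS1 were not called, with 0.04 ± 0.07 and 0.08 ± 0.06 in wild type and 0.17 ± 0.07 and -0.10 ± 0.06 in SvGRP.

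In the soluble subfamilies E and F, 7 of the 8 genes with a probe were tested, and in both genotypes 5 rose and 2 fell with salt, where 63.2% of all genes in wild type and 68.8% in SvGRP were called in either direction. ABCE3 was too dim to test. ABCE proteins are the RLI factors that split ribosomes for reuse in yeast and animals, and ABCE1 and ABCE2 are the 2 tested Arabidopsis copies. ABCE1 went from -4.55, -4.64 and -4.48 to -5.38, -5.37 and -5.18 in wild type and from -3.93, -3.57 and -3.91 to -4.85, -5.33 and -5.06 in SvGRP. It fell without overlap, by -0.75 ± 0.13 (limma adjusted p = 0.00068) and -1.27 ± 0.13 (adjusted p = 1.7e-05), the largest called fall of the family in both genotypes. ABCE2 rose by 0.26 ± 0.06 in each, a call that ended with slide as a term (0.17 with an adjusted p of 0.14, and 0.21 with 0.067).

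ABCF proteins are relatives of yeast GCN20, which works in the stress control of translation. ABCF1 to ABCF4 rose and ABCF5 fell in both genotypes. ABCF2 went from -6.36, -6.95 and -5.88 to -3.21, -3.28 and -4.26 in wild type and from -5.07, -5.41 and -5.65 to -2.78, -2.28 and -1.73 in SvGRP. The salt arrays lay above the control arrays without overlap, and the rise was 2.81 ± 0.37 (7.02-fold, limma adjusted p = 0.00012) and 3.11 ± 0.37 (8.65-fold, adjusted p = 4.5e-05), the second largest measured rise of the family.

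ABCF1 went from 1.36, 1.35 and 1.23 to 2.23, 2.099 and 2.36 in wild type and from 1.16, 1.18 and 1.17 to 2.51, 2.54 and 2.91 in SvGRP. Its rise was 0.91 ± 0.10 (limma adjusted p = 5.1e-05) and 1.48 ± 0.10 (adjusted p = 1.8e-06), and its second probe gave 1.06 and 1.46. ABCF3 and ABCF4 rose by less, 0.26 ± 0.05 and 0.23 ± 0.04 in wild type and 0.22 ± 0.05 and 0.39 ± 0.04 in SvGRP. ABCF5 went from 3.21, 3.08 and 3.32 to 2.57, 2.50 and 2.44 in wild type and from 3.35, 3.39 and 3.32 to 2.94, 2.98 and 2.84 in SvGRP. Its falls without overlap were -0.70 ± 0.07 (adjusted p = 2.0e-05) and -0.43 ± 0.07 (adjusted p = 0.0003), and on the E1A scale they were -0.27 and -0.21 and not called. ABCF2 and ABCF5 thus marked the ends of a subfamily in which all 5 genes were called.

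**Figure D4:**
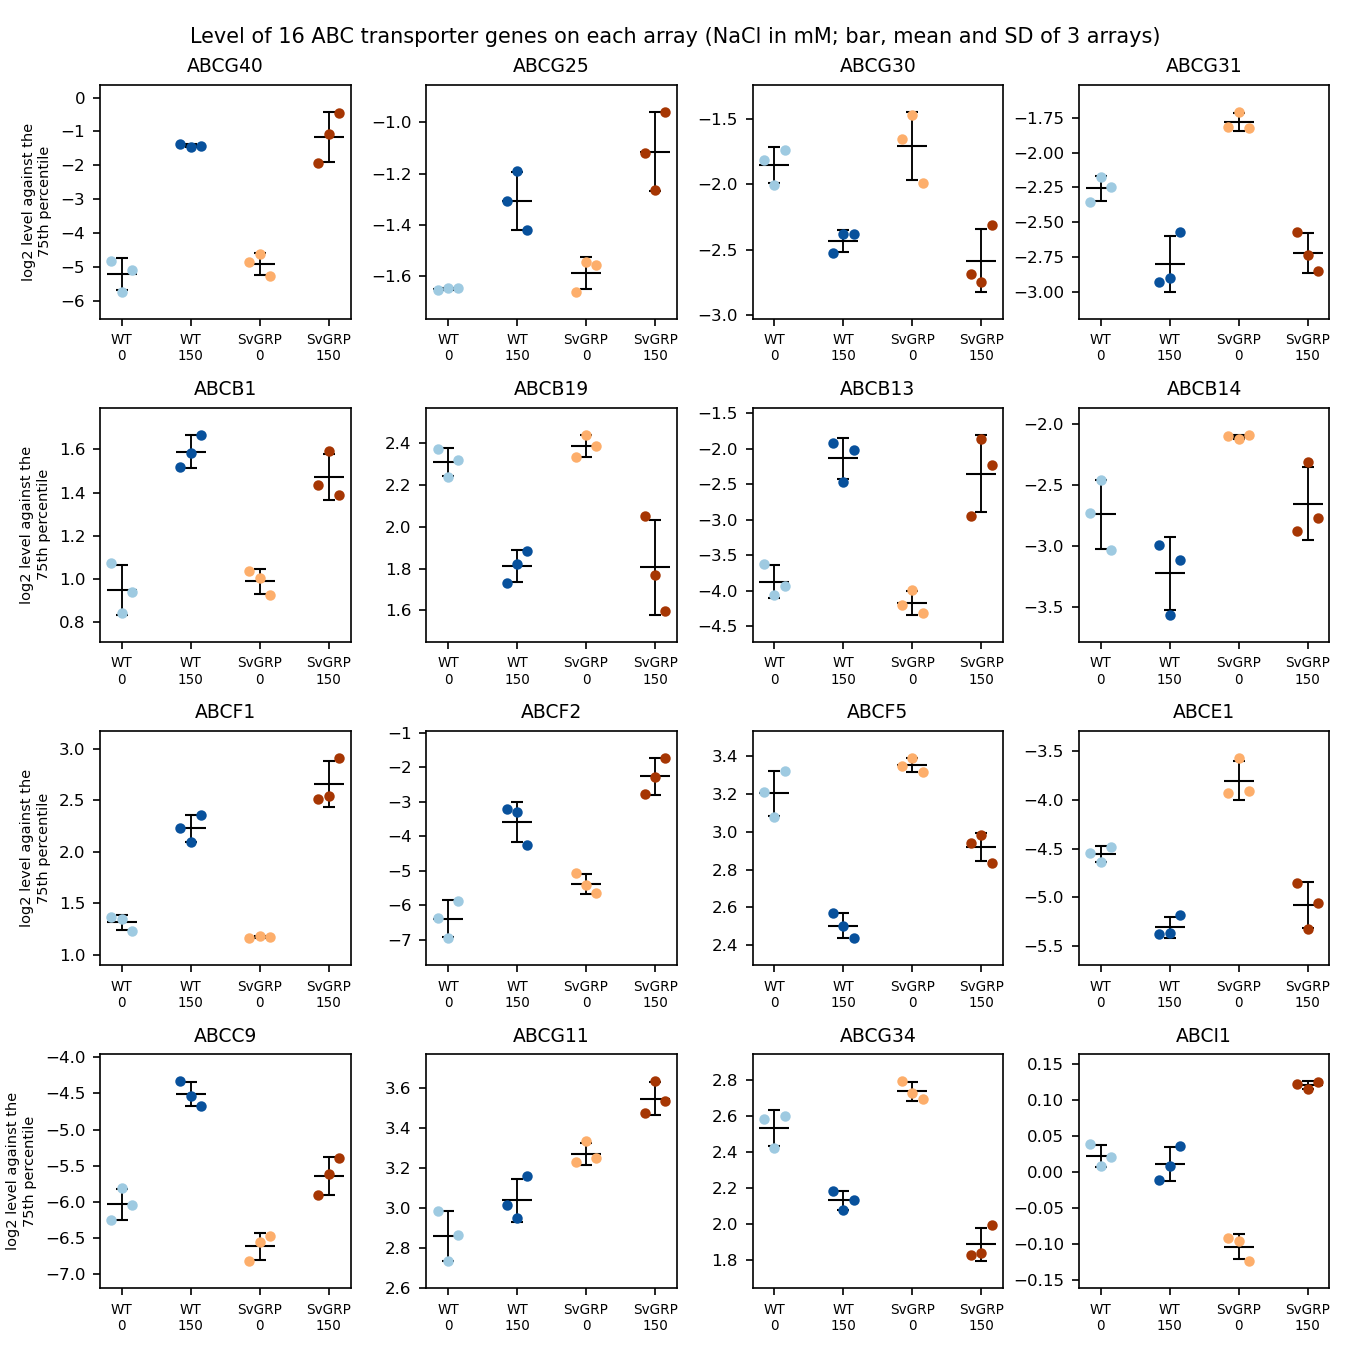
Log2 level against the array's 75th percentile for 16 ABC genes on each of 12 arrays, in wild type (WT) and SvGRP at 0 and 150 mM NaCl. Points are arrays, bars are the mean and SD of 3 arrays, and each panel has its own scale. ABCG40 stands between -5.73 and -4.62 on the 6 arrays at 0 mM and between -1.94 and -0.46 on the 6 arrays at 150 mM, and ABCI1 spans only -0.12 to 0.13.

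Transporters of the surface lipids moved little with salt, judged by the 3 of 10 listed cuticle and suberin transporters that had a probe. ABCG11 and ABCG12 export cutin and wax from epidermal cells. ABCG11 stood at 2.98, 2.73 and 2.86 and then 3.01, 2.95 and 3.16 in wild type, which overlap, and at 3.23, 3.33 and 3.25 and then 3.47, 3.63 and 3.53 in SvGRP, which do not. Its change was 0.18 ± 0.08 (limma adjusted p = 0.073) and 0.28 ± 0.08 (adjusted p = 0.011), and with slide as a term the SvGRP value was 0.30 with an adjusted p of 0.076. The other probes of ABCG11 gave -0.08 to 0.02 in wild type and -0.07 to 0.35 in SvGRP, so its direction with salt is not settled. ABCG12 was not called, at 0.14 ± 0.10 and 0.18 ± 0.10, and ABCG32, a transporter of cutin precursors, had -0.27 ± 0.07 and -0.41 ± 0.07, both called. The wild-type value of ABCG32 was above 0 on the E1A scale and lost its call under quantile normalization (-0.15) and with slide as a term (-0.29, adjusted p = 0.067). Of the 9 tested enzymes that make suberin and cutin monomers, 5 rose and 1 fell in wild type, and 1 rose and 1 fell in SvGRP, beside 33.1% of all genes higher and 30.2% lower in wild type and 31% and 37.8% in SvGRP. With slide as a term 2 rose and 1 fell in wild type, since CYP86A4 (0.57, adjusted p = 0.073), FAR5 (0.83, adjusted p = 0.068) and CYP86A1 (0.58, adjusted p = 0.21) lost their calls. FAR4, a fatty acid reductase of suberin, rose by 0.87 ± 0.13 and 0.63 ± 0.13.

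The defence-related G genes, like the abscisic acid transporters, did not move together. ABCG34 secretes camalexin, a defence compound of Arabidopsis. It went from 2.58, 2.42 and 2.60 to 2.18, 2.08 and 2.13 in wild type and from 2.79, 2.73 and 2.69 to 1.82, 1.84 and 1.99 in SvGRP, a fall without overlap of -0.40 ± 0.07 (limma adjusted p = 0.00052, above 0 on the E1A scale) and -0.85 ± 0.07 (adjusted p = 3.2e-06). The second probe of ABCG34 gave -0.13 in wild type and -0.45 in SvGRP. Both probes were called in SvGRP but not in wild type. PAD3 and CYP71A13, which make camalexin, were both called higher in wild type. PAD3 rose by 2.05 ± 0.21, and the fitted change of CYP71A13 was 2.56 ± 0.80, with 1 of its 3 arrays at 0 mM above the floor, so its size is not settled. In SvGRP PAD3 rose by 1.00 ± 0.21 (0.84 with slide as a term, adjusted p = 0.054) and CYP71A13, below the floor on all 3 SvGRP arrays at 0 mM, was not called. The wild-type call of CYP71A13 ended with slide as a term, at 2.66 with an adjusted p of 0.11, and without wild type 0 mM replicate 2 or 3 or at 150 mM replicate 2, at 2.25 to 2.41. ABCG35, a close relative of the defence transporter PEN3, stood at 0.58, 0.26 and 0.63 and then 0.20, 0.06 and 0.06 in wild type, not called at -0.38 ± 0.18. In SvGRP it went from 0.70, 0.66 and 0.36 to -0.57, -0.91 and -0.14, a fall without overlap of -1.12 ± 0.18 (adjusted p = 0.00034). ABCG29, which exports a lignin monomer, was called in none of the 5 comparisons.

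The remaining hormone and organelle transporters changed by less than 2-fold. ABCG14, which sends cytokinin from root to shoot, had -0.31 ± 0.12 in wild type and -0.60 ± 0.12 in SvGRP. The wild-type call had an adjusted p of 0.041, was above 0 on the E1A scale, and ended with slide as a term (-0.30, adjusted p = 0.19). It also ended without any wild-type array but replicate 3 at 0 mM, and without SvGRP 0 mM replicate 1 or 2 or at 150 mM replicate 1. ABCB25 and ABCB23 export sulfur compounds from mitochondria and rose by 0.28 ± 0.04 and 0.40 ± 0.05 in wild type and by 0.44 ± 0.04 and 0.34 ± 0.05 in SvGRP. ABCB27, a vacuolar transporter of aluminium tolerance, rose by 0.50 ± 0.06 and 0.35 ± 0.06. ABCI14 (TGD1), part of the complex that brings lipids into the chloroplast, rose by 0.29 ± 0.05 and 0.34 ± 0.05. Its partners ABCI13 (TGD3) and ABCI15 (TGD2) had 0.05 ± 0.05 and -0.08 ± 0.07 in wild type, not called. ABCI15 was called in SvGRP at -0.27 ± 0.07, and on the E1A scale it was -0.04 there and not called. By the probes used, the 3 subunits were thus not called in the same direction. The second probe of ABCI13, however, gave 0.54 in wild type and 0.59 in SvGRP, against 0.05 and 0.09 for the probe used, so the direction of ABCI13 is not settled. The photosynthetic markers fell with salt in 4 of 5 cases in wild type and 3 of 5 in SvGRP, from a summed level of 414 to 468 to one of 293 to 306 in wild type and from 367 to 384 to 292 to 324 in SvGRP, and their part in these results was not tested.

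2 further genes complete the strongest falls. ABCI10 went from -0.86, -0.82 and -0.79 to -1.34, -1.34 and -1.29 in wild type and from -0.94, -0.90 and -0.90 to -1.30, -1.38 and -1.50 in SvGRP, falls without overlap of -0.50 ± 0.05 (limma adjusted p = 3.7e-05) and -0.48 ± 0.05 (adjusted p = 3.1e-05). ABCB17 went from -6.18, -6.49 and -6.22 to -6.81, -7.06 and -6.77 in wild type and from -5.74, -5.96 and -5.99 to -6.78, -6.80 and -6.46 in SvGRP, falls without overlap of -0.58 ± 0.13 (adjusted p = 0.0025) and -0.78 ± 0.13 (adjusted p = 0.00033). On the E1A scale the wild-type values of both were -0.07 and -0.16 and not called, and the wild-type call of ABCB17 ended with slide as a term, at -0.51 with an adjusted p of 0.058.

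Without salt, SvGRP seedlings had 20 family genes higher than wild type and 2 lower. Over all genes, 10.4% were called higher and 10.8% lower, 21.2% in all. The members' share called higher was 27.4%, their median difference was 0.15 beside 0.03 for all genes, and none of those called differed by 2-fold, where 1.95% of all genes were at least 2-fold higher and 1.74% lower. None of the 22 was called by limma with slide as a term (8 of the 73 had an unadjusted p under 0.05, and the smallest adjusted p was 0.213), although all 22 had the same sign. In that fit 0.911% of all genes were called. Since no slide held both genotypes at 0 mM, slide and genotype can be separated at 0 mM only through wild type 150 mM replicate 1. At 150 mM they can be separated only through SvGRP 0 mM replicate 3. On the E1A scale the median of all genes shifted to 0.39 and the family split 56 higher and 0 lower, beside 59.3% and 2.65% of all genes. The count of higher genes was 11 without wild type 0 mM replicate 3, 12 without SvGRP 0 mM replicate 2 and 13 without SvGRP 0 mM replicate 3, and the count of lower genes was 0 to 4, at 0 without wild type 0 mM replicate 2 or 3 or SvGRP 0 mM replicate 1 or 2 and at 4 without SvGRP 150 mM replicate 1.

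**Figure D5:**
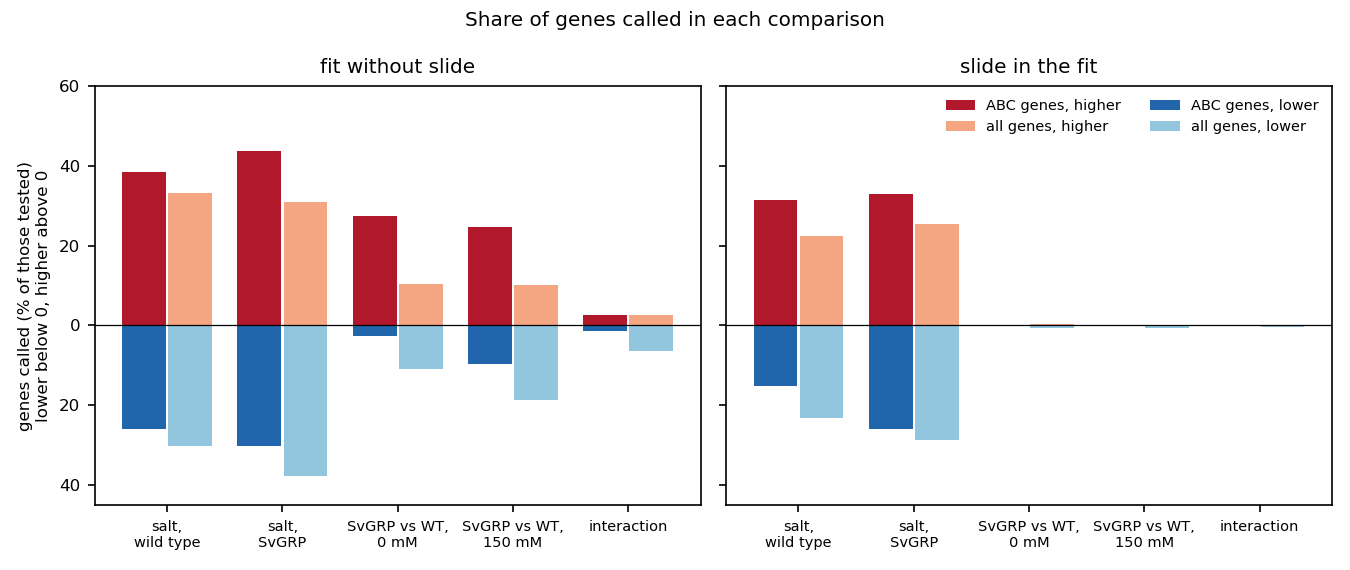
Genes called higher (above 0) and lower (below 0) in each comparison, as a percentage of the 73 tested ABC genes (dark bars) and of all 26782 genes tested (light bars), without slide in the fit on the left and with it on the right. At 0 mM 27.4% of ABC genes and 10.4% of all genes are called higher in SvGRP without slide, and with slide no ABC gene is called in the 3 comparisons of genotype.

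The genes higher in SvGRP at 0 mM spanned several roles. ABCE1 had the largest difference: SvGRP stood at -3.93, -3.57 and -3.91 and wild type at -4.55, -4.64 and -4.48, 0.75 ± 0.13 higher without overlap (limma adjusted p = 0.0044). ABCE2 was also higher, by 0.40 ± 0.06, but its second probe gave -0.02 and the mean of both 0.19, not called. ABCA4 was 0.72 ± 0.13 higher (adjusted p = 0.0051), ABCB14 0.63 ± 0.19 (adjusted p = 0.042) and ABCG31 0.48 ± 0.11 (adjusted p = 0.013), each without overlap in the arrays given above. Of these, ABCB14 lost its call without wild type 0 mM replicate 1 or 3, wild type 150 mM replicate 3 or any SvGRP array at 0 mM, with values of 0.49 to 0.64, and under quantile normalization (0.62) or median scaling (0.63).

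The cutin and wax exporters ABCG11 and ABCG12 were among them, while ABCG32 had 0.11 and was not called. ABCG11 in SvGRP lay above wild type on every array, 0.41 ± 0.08 higher (limma adjusted p = 0.0072), and its other 3 probes gave 0.05 to 0.33. ABCG12 was 1.73, 1.55 and 1.50 in wild type and 2.05, 2.12 and 1.88 in SvGRP, 0.43 ± 0.10 higher (adjusted p = 0.016), a call that ended without wild type replicate 3 or SvGRP replicate 1 or 2. ABCC13 was -1.54, -1.26 and -1.43 in wild type and -1.07, -1.01 and -0.91 in SvGRP, 0.41 ± 0.11 higher (adjusted p = 0.023), and ABCG37 and ABCC1 were 0.31 ± 0.07 and 0.22 ± 0.05 higher. The call of ABCC13 ended without wild type replicate 1 or 3 or SvGRP replicate 2 or 3, and that of ABCC1 without SvGRP replicate 1.

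The 2 genes called lower were ABCC9 and ABCI1. ABCC9 was 0.58 lower on the log2 scale in SvGRP (difference -0.58 ± 0.16, limma adjusted p = 0.029), and its groups did not overlap. ABCI1, the ATP-binding subunit of cytochrome c maturation in mitochondria, stood at 0.04, 0.01 and 0.02 in wild type and -0.09, -0.10 and -0.12 in SvGRP. That difference of -0.13 ± 0.04 (adjusted p = 0.037) was 0.23 on the E1A scale. The call of ABCC9 ended without wild type replicate 2 or 3 or SvGRP replicate 1 or 2, with values of -0.61 to -0.47. That of ABCI1 ended without any array at 0 mM or wild type 150 mM replicate 2. Of the 4 seed storage and oil body markers, 3 were higher in SvGRP at 0 mM, and their summed level was 0.0217 to 0.0377 in wild type and 0.0655 to 0.0956 in SvGRP, with OLEO1 below the floor in wild type. At 150 mM 3 of 4 were again higher in SvGRP, with summed levels of 0.0563 to 0.0769 in wild type and 0.224 to 0.299 in SvGRP. With slide as a term 0 of the 4 differed by genotype at either NaCl level by call. ABCG31 at 150 mM had a difference of 0.08 ± 0.11 and was not called. With salt 2 of the 4 markers rose in each genotype, with medians of 1.15 and 1.45, while ABCG31 fell. Their part in the difference of ABCG31, which acts in seeds, was not tested.

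At 150 mM, 18 members were higher in SvGRP and 7 lower, where 10.2% of all genes were called higher and 18.6% lower, 28.9% in all. Of the called members 1 was at least 2-fold higher and 3 at least 2-fold lower, leaving out ABCG26, which was below the floor in both groups. By fitted change, 0.87% and 3.64% of all genes were. The members' median difference was 0.08 beside -0.02 for all genes. With slide as a term 0 were called by limma (13 of the 73 had an unadjusted p under 0.05, and the smallest adjusted p was 0.103), and 24 of the 25 had the same sign, the exception being ABCG26, and 0.892% of all genes were called. The counts of higher and lower genes ranged from 11 to 24 and from 3 to 9 when single arrays were left out, and the lowest count of higher genes came without wild type 150 mM replicate 2. The counts of lower genes were 4 without that array, 3 without wild type 150 mM replicate 3 and 4 without SvGRP 150 mM replicate 2. The 2 genotype comparisons share no array. 10 genes were called higher in both: ABCB2, ABCB14, ABCB28, ABCB29, ABCC1, ABCC14, ABCE2, ABCF3, ABCG11 and ABCG12. Over all genes, 3.53% were called higher in both, 5.37% lower in both and 0.627% in opposite directions. The second probe of ABCC14 gave -0.01 at 0 mM and -0.19 at 150 mM against 0.26 and 0.24 for the probe used, and that of ABCE2 gave 0.09 at 150 mM against 0.40. ABCC9 was called lower in both, and ABCI1 was lower at 0 mM and 0.11 ± 0.04 higher at 150 mM (adjusted p = 0.049), a call that ended without any of the 12 arrays.

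All 5 ABCF genes were called higher in SvGRP at 150 mM, where 10.2% of all genes were, and 0 were called with slide as a term. ABCF2 led with 1.32 ± 0.37 (limma adjusted p = 0.025), at -2.78, -2.28 and -1.73 in SvGRP against -3.21, -3.28 and -4.26 in wild type, a call that ended without SvGRP replicate 2 or 3 or wild type replicate 3. ABCF1 was 0.43 ± 0.10 higher (adjusted p = 0.014), a call that ended without wild type replicate 2, and ABCF5 was 0.42 ± 0.07 higher (adjusted p = 0.0022). ABCF4 and ABCF3 were 0.25 ± 0.04 and 0.14 ± 0.05 higher. The other probes of ABCF4 gave 0.14 to 0.31, and not all of its probes were called. ABCF1, ABCF2 and ABCF5 did not overlap between genotypes at 150 mM. At 0 mM ABCF3 was the member of the 5 that was called, at 0.19 ± 0.05. The calls of ABCF3 ended without any of 5 arrays at 0 mM (all of the 6 but wild type replicate 1), and at 150 mM without wild type replicate 1 or 2, SvGRP replicate 2 or 3, wild type 0 mM replicate 3 or any SvGRP array at 0 mM.

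ABCG11 and ABCG12 kept their difference at 150 mM, while ABCG32, the third cuticle transporter tested, had -0.03 and was not called. ABCG11 was 0.51 ± 0.08 higher (limma adjusted p = 0.0017; other probes 0.28 to 0.59), and ABCG12, at 1.72, 1.66 and 1.81 in wild type and 2.01, 2.33 and 2.26 in SvGRP, was 0.47 ± 0.10 higher (adjusted p = 0.0075). Neither overlapped between genotypes. ABCB14 was 0.57 ± 0.19 higher (adjusted p = 0.049), a call that ended without wild type 0 mM replicate 1, any SvGRP array at 0 mM, or replicate 2 or 3 of either genotype at 150 mM. ABCB2 stood at 1.45, 1.45 and 1.56 in wild type and 1.84, 2.00 and 1.92 in SvGRP, 0.44 ± 0.08 higher (adjusted p = 0.0034), beside 0.39 ± 0.08 at 0 mM, where it stood at 1.81, 1.59 and 1.51 in wild type and 2.01, 2.09 and 1.99 in SvGRP. ABCB2 was called in neither salt comparison.

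The genes lower in SvGRP at 150 mM included some that were below the floor on the SvGRP arrays. ABCA6 was below the floor on all 3 SvGRP arrays (-8.65, -8.03 and -8.04) and above it on the wild-type arrays (-7.10, -6.49 and -6.22), at least 2.47-fold lower. Its fitted difference of -1.64 had a limma adjusted p of 0.018, a call that ended without wild type replicate 2 or 3. ABCG26, a transporter of pollen wall material, was below the floor in both groups (-7.87, -7.78 and -7.88 in wild type, -9.18, -9.08 and -9.15 in SvGRP), so its call gives no fold, and the call ended without any array at 150 mM or without wild type 0 mM replicate 1 or 3. ABCC15 was 1.04 lower on the log2 scale (-1.04 ± 0.18, adjusted p = 0.0029) and ABCC9 1.13 lower (-1.13 ± 0.16, adjusted p = 0.0010), both without overlap. ABCG35 had -0.65 ± 0.18 (adjusted p = 0.024), ABCG34 -0.24 ± 0.07 (adjusted p = 0.023), and ABCI21 -0.38 ± 0.07 (adjusted p = 0.0050), at -0.01, 0.03 and 0.06 in wild type and -0.54, -0.28 and -0.25 in SvGRP. The second probe of ABCG34 gave -0.02, so its difference at 150 mM is not settled. The call of ABCG35 ended without wild type replicate 1, 2 or 3 or SvGRP replicate 1 or 2, and that of ABCG34 without wild type replicate 1 or 3 or SvGRP replicate 1 or 2. When only probes above the floor on all arrays were tested, 4 members were lower, beside 19.9% of all genes.

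The root hair markers COBL9 (SHV2), EXPA7, RSL4 and PRP3 differed in the same comparison. All 4 were lower in SvGRP at 150 mM, with a median of -2.56, and their summed level was 1.43 to 1.75 in wild type and 0.144 to 0.448 in SvGRP, none of them below the floor. With slide as a term 0 of the 4 were called in that comparison. At 0 mM the summed levels were 0.558 to 1.14 and 0.628 to 1.34 and none was called. Their part in the lower levels of ABCG35, ABCG34 and ABCC9 was not tested.

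The genotypes responded differently to salt in 3 family genes, where 8.96% of all genes were called in this interaction, 2.52% higher and 6.45% lower. None of the 3 reached 2-fold, which 0.736% of all genes did upward and 2.55% downward. ABCF1 rose more in SvGRP than in wild type, by 0.57 ± 0.15 (limma adjusted p = 0.044), and its second probe gave 0.40. ABCI1 rose in SvGRP alone, from -0.09, -0.10 and -0.12 to 0.12, 0.12 and 0.13, while wild type went from 0.04, 0.01 and 0.02 to -0.01, 0.01 and 0.04, a difference of 0.24 ± 0.05 (adjusted p = 0.026). ABCG34 fell more in SvGRP, by -0.45 ± 0.09 (adjusted p = 0.023), and its second probe gave -0.32. With slide as a term the values were 0.57, 0.28 and -0.46, with adjusted p of 0.37, 0.23 and 0.25, and 0.515% of all genes were called. On the E1A scale, which shifted the median of all genes to -0.24, ABCI1 had 0.04 and was not called. Over 23 alternative settings the call was made in 9 for ABCF1, 14 for ABCI1 and 19 for ABCG34. That of ABCG34 ended without SvGRP 0 mM replicate 1 or 2, that of ABCI1 without any SvGRP array at 0 mM, wild type 0 mM replicate 1 or 3 or wild type 150 mM replicate 2. That of ABCF1 ended without any array at 0 mM, wild type 150 mM replicate 1 or 2 or SvGRP 150 mM replicate 2. The root hair markers were all called lower in the interaction, with a median of -2.75, but 0 of them were called with slide as a term. Their part in the ABCG34 result was not tested.

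ABCB16 showed the largest interaction value of the family without being called. It stood at -4.68 and -4.57 (wild type 150 mM replicates 2 and 3) and at -5.34 and -5.16 (SvGRP 0 mM replicates 1 and 2) on the 4 arrays of slide 2, and between -7.27 and -6.73 on the other 8 arrays. The interaction was -2.75 ± 0.90 (limma adjusted p = 0.085) and was -0.08 with slide as a term. The 10 genes called in none of the 5 comparisons were ABCA8, ABCA9, ABCB3, ABCB6, ABCB16, ABCG29, ABCG33, ABCG39, ABCI7 and ABCI11.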

How the data were processed

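RNA of whole seedlings was measured on 12 one-colour Cy3 arrays, 3 in each of 4 groups taken from the labels. The authors deposited 1 file per array with processed signal intensity from Agilent Feature Extraction, per the file headers and the submitters' processing notes (version not given in the sources used here), and a series table of log2 values. Set against the array files, the deposited log2 table proved to be the same signal scaled to each array's 75th percentile and centred per probe, with a largest difference of 0.000213.

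Intensities were log2-transformed after division by the array's 75th percentile over 43603 non-control probes. Of these, 34344 were named to 1 gene through the probe table and RefSeq names (TAIR10.1), and 9259 stayed unnamed. Probes had to exceed the array's 20th percentile (the floor) on all arrays of at least 1 group, which 35454 did, and each gene was represented by its brightest such probe on average. limma 3.58.1 in R 4.3.3 fitted 26782 genes or unnamed probes with a mean per group (8 residual and 1.74 prior degrees of freedom), with Benjamini-Hochberg adjustment over all of them and a threshold of 0.05. Tables were made with Python 3.11.15 and pandas 2.3.3. On simulated data for salt in wild type, 200 of 26782 genes were changed, split evenly between 2-fold and 4-fold. Of these, 83 changed 2-fold and 95 changed 4-fold were recovered, 0 with the wrong sign, and 8 unchanged genes were called. The simulation had independent noise and no slide or scaling effect, and in the data 63.2% of all genes were called. It therefore checks the fit and does not measure the error among the calls reported here.

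Full values were given to up to 6 called genes per direction and comparison whose compared groups did not overlap, ranked by change. All genes called in the interaction and a set of well-studied members were given too. For the genes ranked by change, the lack of overlap was set by this choice and is no added support. The members and lists were chosen with earlier results of these data known. ABCB16, ABCI13, ABCI14 and ABCI15 were described after their values were seen. Alternatives were other scalings, filters, probe rules and variance models, slide or replicate number as a term, the series table, and leaving out each array. The number of arrays limits the precision.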

Additional observations from a re-analysis of the deposited data

Results flagged for a closer look

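In 3 family genes the salt response differed between the genotypes by a test of the difference itself, the limma interaction. The salt response of ABCF1 was 0.57 higher in SvGRP than in wild type on the log2 scale, that of ABCI1 was 0.24 higher, and that of ABCG34 differed by -0.45. None of the 3 kept its call with slide in the fit.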

How the results depend on the processing

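Scaling, slide and single arrays limit these results. Of 192 gene values under 25 settings each, 4166 combinations kept direction and side of the threshold, 560 lost the call, 38 gained it and 20 changed sign, and the causes were not tested. E1A scaling gave 49 higher and 1 lower for salt in wild type, 9 lower for salt in SvGRP, 56 and 0 for genotype at 0 mM, 3 lower at 150 mM, and 0 and 6 for the interaction. On that scale the wild-type salt values were 0.069 for ABCA2, 0.26 for ABCB20, 0.20 for ABCB26, 0.28 for ABCC1, 0.12 for ABCG14, 0.16 for ABCG32, 0.025 for ABCG34, 0.26 for ABCG37, 0.023 for ABCI8, 0.059 for ABCI20 and 0.20 for NRT1:2. Those in SvGRP were 0.02 for ABCC1, 0.058 for ABCI8, 0.13 for CAD1 (PCS1) and 0.0029 for NRT1:2, and ABCI1 at 0 mM was 0.23. The mean of all probes turned ABCB4 to -0.19 and -0.29 and NRT1:2 in wild type to 0.020, and left 1 higher and 0 lower in the interaction.

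Slide as a fixed term gave 11 lower for salt in wild type, 0 in each direction for both genotype comparisons and the interaction, and 0.50 for ABCG26 at 150 mM. As a random block (correlation -0.1649) it gave 32 higher and 4 lower at 0 mM, 12 lower at 150 mM, and 6 and 12 in the interaction. Quantile normalization gave 4 lower at 0 mM, and median scaling 1 lower at 0 mM and 28 higher at 150 mM. With only the groups compared, 5 were lower at 0 mM and 7 higher at 150 mM. The strict filter left 4 lower at 150 mM, and no filter 1 higher in the interaction. The 2-fold threshold on fitted changes, dim genes included, left 11 and 0 for salt in wild type, 10 and 2 in SvGRP, 0 and 0 at 0 mM, 1 and 4 at 150 mM, and 0 and 0 in the interaction.

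Leaving out single arrays gave 28 to 31 higher and 16 to 20 lower for salt in wild type, 30 to 33 and 19 to 23 in SvGRP, 11 to 22 and 0 to 4 for genotype at 0 mM, 11 to 24 and 3 to 9 at 150 mM, and 0 to 3 and 0 to 4 in the interaction. Between compared groups, the deviations of same-numbered arrays from their group means correlated with r from -0.183 to 0.0152, so no pairing by number was seen. The replicate block gave 1 lower at 0 mM and 0 higher in the interaction.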
